A study of Mus musculus with 5 samples.

Results

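The phagocyte NADPH oxidase was examined in hearts of lupus-prone and control mice through 6 genes: Cybb, Cyba, Ncf1, Ncf4 and Rac2, which encode parts of the oxidase of phagocytes, and Nox4, an oxidase of non-phagocytic cells included for contrast. Every probe set annotated to exactly 1 of these symbols was taken, which gave 12 of the 45037 probe sets that are not array controls: 3 for Cybb, 3 for Ncf1, 2 for Rac2, 2 for Nox4, 1 for Cyba and 1 for Ncf4. RNA from hearts of female mice was hybridised to 5 Affymetrix Mouse Genome 430 2.0 arrays, each titled as a biological replicate. The mice behind the 3 NZB_W arrays, F1 animals of NZB and NZW parents that develop lupus-like disease with immune complex nephritis, had moderate kidney injury on the Austin score. Those behind the 2 NZW arrays were of matched age with healthy kidneys. The age given is 12 to 15 weeks, no mouse was treated, and all hearts were bled and perfused with saline before collection. The groups differ in genotype and in disease together, so the 2 cannot be told apart, and NZB parents were not analysed here.

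The phagocyte oxidase moves electrons from NADPH inside the cell onto oxygen, forming superoxide in the phagosome or outside the cell. Its membrane core, cytochrome b558, is a heterodimer of the catalytic chain gp91phox (Cybb) and the smaller p22phox (Cyba). In resting cells the organiser p47phox (Ncf1), p40phox (Ncf4) and the GTPase Rac2 lie in the cytosol, and they join the core when the cell is activated. Nox4 encodes a relative of gp91phox that also pairs with p22phox but needs none of these cytosolic parts, and it is found in cardiomyocytes, fibroblasts and vascular cells. In a heart, transcripts of the phagocyte-restricted subunits come mainly from resident macrophages and other leukocytes.

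Cybb was the 1 member with a difference of over 1 on the log2 scale, and its 3 probe sets were 2.35- to 2.54-fold higher in NZB_W hearts, with all 3 NZB_W arrays above both NZW arrays on each of them. Its partner Cyba and the cytosolic members Ncf1, Ncf4 and Rac2 differed by 0.069 to 0.49 on the same scale. The 2 Nox4 probe sets went in opposite directions. Over the 12 probe sets, 11 had a higher mean in NZB_W and the median log2 difference was 0.27, whereas 49.1% of all probe sets were higher and their median difference was 0. None of the 12 passed limma's test at an adjusted p of 0.05 (Benjamini-Hochberg over 45037 probe sets), a level that 0.00444% of all probe sets reached, or 2 of them. At an unadjusted p of 0.05, 1 of the 12 passed, a Cybb probe set that was higher in NZB_W, as were 1.85% of all probe sets.

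The precision is set by 3 arrays against 2. Array medians lay between 4.62 and 4.68 on the log2 scale. Whole-array correlations ran from 0.989 to 0.996. The first principal component, with 44.1% of the variance, placed NZB_W array 3 at 48.5 and the other arrays between -18.9 and -6.73. The 5' minus 3' log2 difference of the beta-actin control, a measure of RNA integrity, reached -1.31 for NZB_W array 3 and -1.19 for NZW array 2, with the other arrays at -0.89 to -0.88. NZW array 2 also had the highest 18S ribosomal RNA control, 12.7 where the other arrays had 9.97 to 10.5. The deposited table also repeats values: on 63.1% of all probe sets, and on 9 of the 12 examined here, at least 2 arrays hold exactly the same number, so a small spread within a group can reflect such ties. The 9 cardiomyocyte markers checked were above the array median on every array, with a median difference of -0.037 between the groups.

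**Figure D1:**
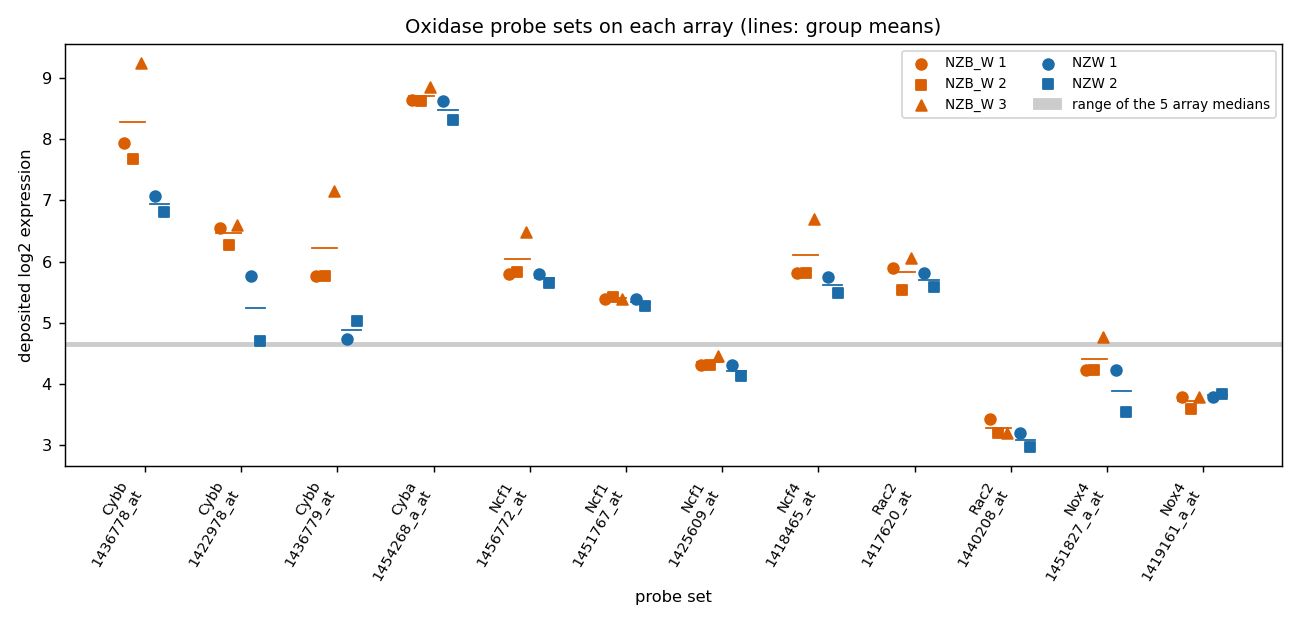
Deposited log2 expression (y axis) of the 12 probe sets of the oxidase genes (x axis) on each of the 5 arrays, with group means as short lines and the range of the array medians as a grey band. On the 3 Cybb probe sets every NZB_W array lies above both NZW arrays, and 3 probe sets (1425609_at, 1440208_at and 1419161_a_at) lie below the array medians on all 5 arrays.

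Cybb encodes the catalytic chain that carries the electrons, and its loss causes X-linked chronic granulomatous disease. On its brightest probe set (1436778_at), NZB_W arrays 1, 2 and 3 read 7.93, 7.67 and 9.24, and NZW arrays 1 and 2 read 7.07 and 6.80 in log2 units. All NZB_W values were above both NZW values, by at least 0.60, and NZB_W array 3 stood 1.44 above the mean of the other 2 NZB_W arrays. The group means were 8.28 ± 0.84 (SD, n = 3) and 6.94 ± 0.19 (SD, n = 2). The log2 difference was 1.34 (SE 0.54, 95% interval -0.12 to 2.81, limma adjusted p = 0.877) or 2.54-fold. Without NZB_W array 3 the difference was 0.86, with an interval of 0.36 to 1.37 and a limma adjusted p of 0.738. The interval included 0 without NZB_W array 1 (-0.64 to 3.68) and without NZB_W array 2 (-0.11 to 3.40). The difference was 1.48 without NZW array 1 and 1.21 without NZW array 2. Each of these 2 rests on a lone NZW array, which has no spread of its own, so no interval is given.

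A second Cybb probe set, 1436779_at, was designed on the same source sequence as 1436778_at, so the 2 are not independent. It read 5.76, 5.76 and 7.15 on the NZB_W arrays and 4.74 and 5.04 on the NZW arrays. The groups did not overlap, NZB_W array 3 was again the highest, and NZW array 2 was here above NZW array 1. The log2 difference was 1.34 (SE 0.51, interval -0.062 to 2.74, adjusted p = 0.877 by limma), and 0.88 without NZB_W array 3.

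The third Cybb probe set, 1422978_at, was built on another sequence and had a different pattern within the groups. It read 6.55, 6.26 and 6.59 on the NZB_W arrays and 5.76 and 4.71 on the NZW arrays. Here NZB_W array 3 was within 0.18 of the mean of the other 2, while the NZW arrays were 1.05 apart. The means were 6.47 ± 0.18 (SD, n = 3) and 5.24 ± 0.75 (SD, n = 2), a difference of 1.23 (SE 0.35, interval 0.27 to 2.19) or 2.35-fold, with an unadjusted limma p of 0.0233 and an adjusted p of 0.877. Without NZW array 2 the difference was 0.70, and without NZW array 1 it was 1.76. With NZB_W array 3 and NZW array 2 both left out, the 3 Cybb differences were 0.73, 1.02 and 0.64 for 1436778_at, 1436779_at and 1422978_at, all higher in NZB_W. Of all probe sets, 0.322% were over 1 log2 unit higher in NZB_W, and 5.76% had every NZB_W array above both NZW arrays, compared with 5 of the 12 probe sets here, 3 of them those of Cybb.

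The bases before the annotated start of Cybb are shown because it is the member with the difference over 1 log2 unit and because both factor families searched for, PU.1 and the interferon-regulatory factors, are known regulators of this gene in myeloid cells. Of the 6 genes, 4 have an entry in the RefSeq promoter table (GRCm38.p6), from 250 bases before to 50 after the start. The motifs searched on both strands were GAGGAA, the core bound by PU.1, and AANNGAAA, the core bound by interferon-regulatory factors. The sequence lies on chrX:9469325-9469574, minus strand, and capitals mark AANNGAAA matches on either strand.
Cybb, 250 bases before the start: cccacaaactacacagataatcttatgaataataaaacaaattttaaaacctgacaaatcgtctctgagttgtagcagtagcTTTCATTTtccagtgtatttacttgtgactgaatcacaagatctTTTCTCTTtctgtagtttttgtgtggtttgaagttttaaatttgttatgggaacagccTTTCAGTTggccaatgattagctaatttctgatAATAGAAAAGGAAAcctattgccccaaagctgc
It holds 5 AANNGAAA matches, of which the 2 nearest the start overlap each other. The single GAGGAA match begins at base 10 after the start, on the opposite strand, and overlaps a further AANNGAAA match there. The 30 bases around it lie on chrX:9469298-9469327, minus strand, with the GAGGAA match (read as its reverse complement) in capitals.
Cybb, 30 bases around the PU.1 core: tgctgttttcatTTCCTCatcagaagaaga
At least 1 match was found for GAGGAA in 28.3% and for AANNGAAA in 23.9% of 32851 promoter windows of 300 bases, and for both in 7.12%. The 6 AANNGAAA matches of Cybb were equalled or exceeded in 0.0122% of windows, a count compared after it was seen. The Cybb stretch has 34.0% G and C, at or above only 4.25% of promoters, and AANNGAAA is itself rich in A and T. A match says only that these letters are present.

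Cyba encodes p22phox, which stabilises gp91phox and docks p47phox, and is shared with Nox4. Its single probe set (1454268_a_at) read 8.63, 8.62 and 8.85 on the NZB_W arrays and 8.62 and 8.31 on the NZW arrays. NZB_W array 2 and NZW array 1 held the same value, so the groups touched, with NZB_W array 3 the highest and NZW array 2 the lowest. The difference was 0.24 (SE 0.13, interval -0.13 to 0.60, limma adjusted p = 0.877), or 1.18-fold. It was 0.078 without NZW array 2, 0.39 without NZW array 1, and 0.0023 with NZB_W array 3 and NZW array 2 both left out. The difference between Cyba and Cybb was not tested. The Cyba window held no match to either motif.

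Ncf1 encodes p47phox, the organiser that is phosphorylated on activation and carries the cytosolic parts to the membrane. Its brightest probe set (1456772_at) read 5.80, 5.82 and 6.49 on the NZB_W arrays and 5.80 and 5.65 on the NZW arrays. NZB_W array 3 stood 0.67 above the mean of the other NZB_W arrays, and NZB_W array 1 and NZW array 1 held the same value. The difference was 0.31 (SE 0.25, interval -0.38 to 0.996, limma adjusted p = 0.877), and 0.085 without NZB_W array 3.

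The other 2 Ncf1 probe sets share a source sequence and showed smaller differences. On 1451767_at the values were 5.39, 5.42 and 5.39 against 5.39 and 5.27, a difference of 0.069 with an interval of -0.072 to 0.21. NZB_W array 3 was not raised there, and without the low NZW array 2 the difference was 0.0091. On 1425609_at, below the array medians on all 5 arrays, the values were 4.31, 4.31 and 4.46 against 4.30 and 4.12, a difference of 0.15 (interval -0.087 to 0.38). The groups on 1425609_at were separate by only 0.0059, and without NZW array 2 the difference was 0.055. The bases before the start of Ncf1 are shown for their 1 AANNGAAA match, 80 bases before the start and in capitals, on chr5:134229626-134229875, minus strand.
Ncf1, 250 bases before the start: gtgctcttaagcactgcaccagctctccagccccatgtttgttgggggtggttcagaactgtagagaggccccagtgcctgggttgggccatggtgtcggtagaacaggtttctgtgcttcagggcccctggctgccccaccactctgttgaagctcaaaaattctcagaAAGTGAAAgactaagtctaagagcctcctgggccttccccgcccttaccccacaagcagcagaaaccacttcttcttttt
No GAGGAA match was found in the Ncf1 window.

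Ncf4 encodes p40phox, which binds phosphatidylinositol 3-phosphate on phagosomes and sustains oxidase activity there. Its probe set (1418465_at) read 5.82, 5.82 and 6.69 on the NZB_W arrays and 5.75 and 5.48 on the NZW arrays. The groups did not overlap, but the lowest NZB_W value was only 0.066 above the highest NZW value, and NZB_W array 3 stood 0.88 above the other NZB_W arrays. The means were 6.11 ± 0.51 (SD, n = 3) and 5.62 ± 0.19 (SD, n = 2), a difference of 0.49 (SE 0.33, interval -0.41 to 1.40, limma adjusted p = 0.877) or 1.41-fold. Without NZB_W array 3 it was 0.20, and with NZB_W array 3 and NZW array 2 both left out it was 0.066.

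Rac2 encodes the Rac GTPase of blood cells, which switches the assembled oxidase on and also steers migration. Its brighter probe set (1417620_at) read 5.90, 5.54 and 6.05 on the NZB_W arrays and 5.81 and 5.58 on the NZW arrays. The groups overlapped, with NZB_W array 2 the lowest of the 5 arrays. The difference was 0.14 (SE 0.19, interval -0.37 to 0.64, limma adjusted p = 0.899), and its sign turned with NZB_W array 3 and NZW array 2 both left out (-0.093) and with array weights (-0.016). The other Rac2 probe set (1440208_at) was below the array medians on all 5 arrays, with 3.44, 3.20 and 3.20 against 3.20 and 2.97, a difference of 0.20 that was 0.078 without NZW array 2 and 0.31 without NZW array 1.

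**Figure D2:**
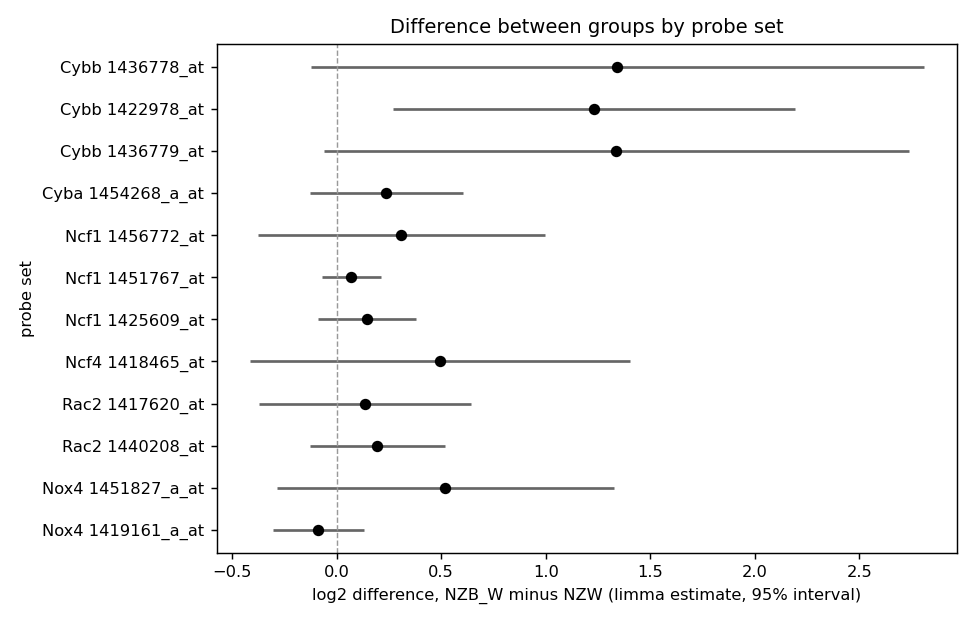
Log2 difference between NZB_W and NZW (x axis, limma estimate as a point, 95% interval as a line) for each of the 12 probe sets (y axis). The 3 Cybb estimates lie at 1.23 to 1.34 and the other 9 at -0.088 to 0.52, and the interval of 1 probe set, Cybb 1422978_at, leaves out 0.

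Nox4, the non-phagocyte oxidase, makes mainly hydrogen peroxide and is active without stimulation. Its brighter probe set (1451827_a_at) read 4.24, 4.22 and 4.76 on the NZB_W arrays and 4.24 and 3.54 on the NZW arrays. It exceeded the array median on 1 array, NZB_W 3, and NZB_W array 1 and NZW array 1 held the same value. The low NZW array 2 and the high NZB_W array 3 set the difference of 0.52 (SE 0.30, interval -0.29 to 1.32, limma adjusted p = 0.877). That difference was 0.17 without NZW array 2 and -0.0067 with both arrays left out. The dimmer probe set (1419161_a_at) read 3.79, 3.60 and 3.79 against 3.79 and 3.84, a difference of -0.088 (interval -0.31 to 0.13), and lay below the array medians throughout. These dim values carry little information on the level of Nox4 in either group, and the difference between Nox4 and the phagocyte subunits was not tested. The Nox4 start is shown as the contrast to Cybb, on chr7:87246399-87246648, plus strand.
Nox4, 250 bases before the start: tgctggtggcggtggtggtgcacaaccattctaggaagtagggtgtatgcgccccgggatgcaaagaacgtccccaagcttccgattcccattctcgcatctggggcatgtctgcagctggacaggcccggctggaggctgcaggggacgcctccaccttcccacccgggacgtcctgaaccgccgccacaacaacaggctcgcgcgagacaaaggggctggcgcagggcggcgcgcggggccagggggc
It has 67.2% G and C, at or above 87.1% of promoters and against a median of 52.4%. It holds 20 CG pairs, where the Cybb stretch holds 1, and no match to either motif was found in the window.

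**Figure D3:**
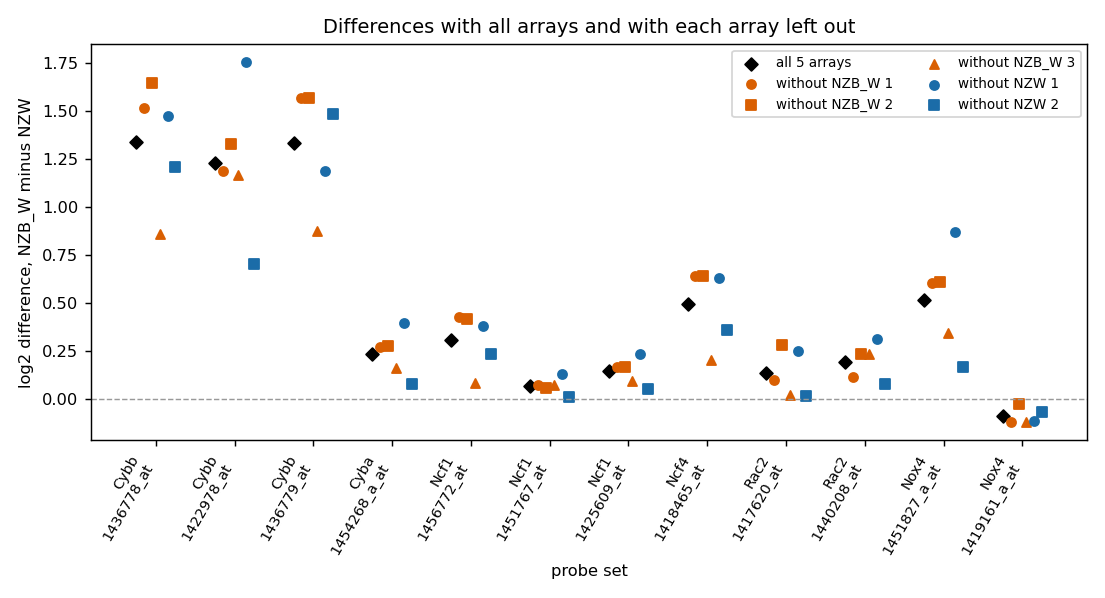
Log2 difference between NZB_W and NZW (y axis) for the 12 probe sets (x axis) with all 5 arrays (black) and with each array left out in turn (coloured by the group of the array left out). The 3 Cybb probe sets stay between 0.70 and 1.76, while Ncf4 falls from 0.49 to 0.20 without NZB_W array 3 and Nox4 1451827_a_at from 0.52 to 0.17 without NZW array 2.

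NZB_W array 3 was the highest array on 9 of the 12 probe sets, against 25.9% of all probe sets (ties included), and NZW array 2 was the lowest on 9, against 24.0%. By the median deviation from each gene's mean over the arrays, pan-leukocyte and macrophage and monocyte markers moved in the same way. Endothelial and red blood cell markers also had NZB_W array 3 highest and NZW array 2 lowest. For neutrophil, B cell, and T and NK cell markers the highest array was instead NZB_W array 1 (0.14, 0.24 and 0.11). All 7 pan-leukocyte markers on the arrays were higher in NZB_W without overlap, with a median difference of 0.93, where 6.64% of all genes were higher without overlap and the median over genes was -0.0012. The summed linear signal of these 7 ran from 1066 to 2579 in NZB_W and from 677 to 796 in NZW. As median deviations from each gene's mean, NZB_W arrays 1, 2 and 3 had 0.059, -0.014 and 1.22 and the NZW arrays had -0.48 and -0.63, the same order as for Cybb 1436778_at. Cybb 1422978_at deviated by 0.57, 0.29 and 0.61 on the NZB_W arrays and by -0.21 and -1.27 on the NZW arrays. On that probe set NZB_W array 3 did not stand apart from NZB_W array 1. The median difference of this list was 0.57 without NZB_W array 3 and 0.52 with NZW array 2 also left out. None of its 7 genes passed the limma test over 18193 genes, a level reached by 0.00550% of genes. At an unadjusted limma p under 0.05, 2 of the 7 were higher in NZB_W, as were 2.07% of all genes. The part of these markers in the Cybb difference was not tested, and in RNA from whole hearts more cells of a type and more RNA per cell cannot be told apart.

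Of 15 macrophage and monocyte markers, 14 were measured and all 14 were higher, 8 of them without overlap. Of all genes, 48.6% were higher and 6.64% were higher without overlap. The median difference of this list was 0.57, with summed signals of 5123 to 8790 in NZB_W and 3473 to 4752 in NZW. That median was 0.30 without NZB_W array 3 and 0.10 with NZW array 2 also left out. Adgre1, the macrophage antigen F4/80, read 7.43, 7.33 and 8.37 against 6.86 and 6.99. Of 11 neutrophil markers, 10 were measured, 7 higher and 3 lower in NZB_W, and 6 of the 10 were below the array medians on all 5 arrays. Their median difference was 0.067, and the summed signals of 170 to 288 in NZB_W enclosed the 212 to 229 in NZW. S100a8, an abundant neutrophil protein, had the lowest difference of this list, -0.54. It read 4.70, 3.97 and 6.19 in NZB_W and 5.71 and 5.29 in NZW, an overlap. The median differences were 0.038 for 5 B cell markers, 0.13 for 7 T and NK cell markers, 0.072 for 5 fibroblast, 0.083 for 5 endothelial and 0.18 for 4 smooth muscle markers. Without NZB_W array 3 the last 3 of these medians turned to -0.25, -0.015 and -0.079. Of 5 red blood cell markers, 3 were measured and all 3 were higher without overlap, where 6.64% of all genes were. Hba-a1, which differed by 0.16, was below the array medians on all 5 arrays. The median difference of the 3 was 2.19, with median deviations of 1.34, -0.46 and 1.75 on the NZB_W arrays against -1.22 and -1.41.

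**Figure D4:**
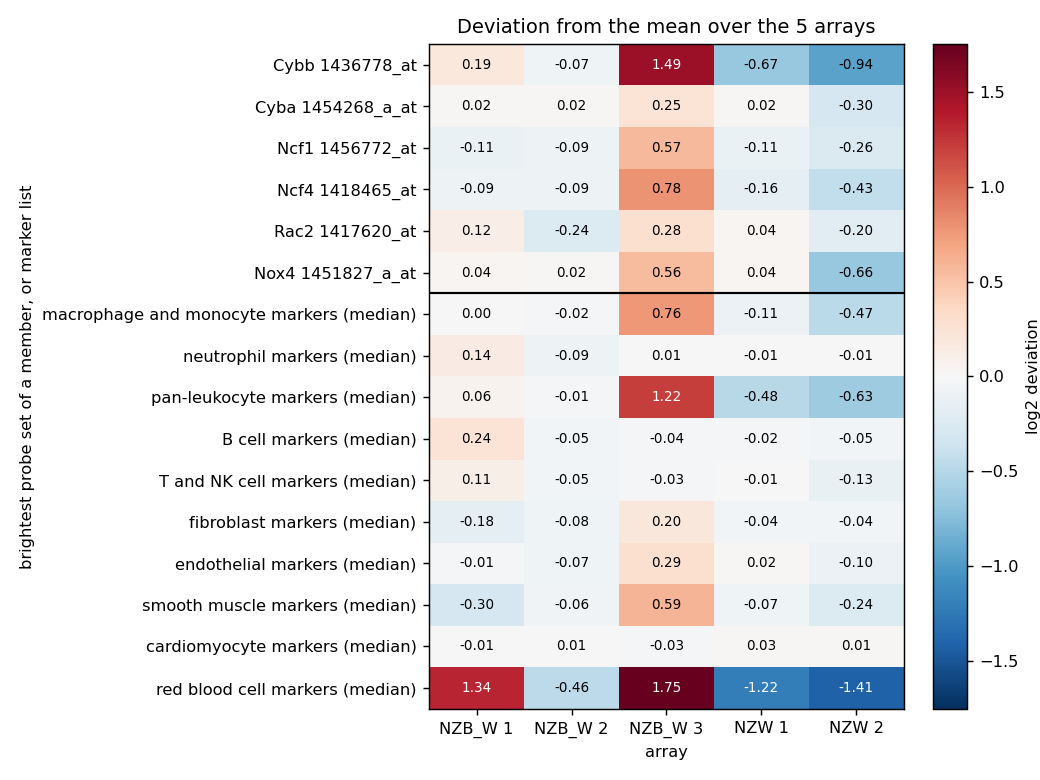
Log2 deviation from the mean over the 5 arrays (colour and printed value) for the brightest probe set of each oxidase gene (above the line) and the median of each marker list (below it), by array. NZB_W array 3 has the highest value in all 6 oxidase rows and NZW array 2 the lowest in 5 of them, and the Cybb row resembles that of the pan-leukocyte markers.

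The genes whose brightest probe sets lay closest to Cybb 1436778_at over the 5 arrays, by the root mean square difference of centred log2 values, were Ptprc (0.072), Ly86 (0.11), Lcp1 (0.12), Irgm1 (0.15) and Clec4a2 (0.15), against a median of 0.85 over all genes. The closest genes lie below that median because they were picked as the closest, and Ptprc and Lcp1 are also on the pan-leukocyte list. Ptprc, the leukocyte common antigen CD45, read 7.67, 7.62 and 9.10 in NZB_W and 6.99 and 6.69 in NZW. For Ncf4 the closest were Tmsb10 (0.042), Ankrd63 (0.045), Wfdc17 (0.048), Tyrobp (0.050) and Mt2 (0.052), against a median of 0.42. For Nox4 1451827_a_at they were Cebpa (0.0050), Arf5 (0.036), Tfrc (0.043), Klra17 (0.046) and Sema4c (0.048), against a median of 0.40. The likeness of Nox4 to Cebpa rests on repeated values, since Cebpa read 5.70 on 3 arrays alike, 6.23 on NZB_W array 3 and 5.01 on NZW array 2. The brightest probe sets of Cyba, Ncf1 and Rac2 spanned less than 1 log2 unit and were not compared in this way.

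Other genes of the pathway were read from their brightest probe sets, in lists chosen with results of these data known. None of their 55 measured genes passed the gene-level limma test, and 4 had an unadjusted p under 0.05, all of them receptors and higher in NZB_W, against 2.07% of all genes. By any amount, 48.6% of all genes were higher in NZB_W. Of 14 further oxidase components and relatives, 9 were measured, 6 higher and 3 lower in NZB_W, with a median difference of 0.024, 0 without overlap, and a range of -0.071 to 0.14. Rac1, the widely expressed Rac, differed by 0.0052 (SE 0.057). Rap1a, a small GTPase that copurifies with cytochrome b558, differed by 0.072 (SE 0.052). Cybc1, the chaperone that stabilises the gp91phox-p22phox heterodimer, differed by 0.14 (SE 0.14) and by 0.021 without NZB_W array 3, and Poldip2, which binds p22phox and supports Nox4, by -0.066 (SE 0.083). Without NZW array 2 the differences of Rac1 and Poldip2 turned to -0.046 and 0.0026. Duoxa2, a maturation factor of a dual oxidase, differed by -0.071 at a level below the array medians.

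The list of receptors that trigger the oxidase had the largest median difference of the pathway lists, 0.67. It also holds the signalling adaptors Fcer1g and Tyrobp and the inhibitory receptor Fcgr2b. Of its 14 genes, 13 were measured and all 13 were higher in NZB_W, 10 without overlap, where 6.64% of all genes were. Fcer1g and Tyrobp were without overlap, and Fcgr2b differed by 0.081 with overlap. Itgam, the CD11b chain of complement receptor 3, read 5.09, 4.76 and 5.39 against 3.69 and 3.77, a difference of 1.35 (SE 0.20, unadjusted p = 0.0019, limma adjusted p = 0.826), with both NZW values under the array medians. Tlr4, the endotoxin receptor, read 6.98, 7.11 and 7.15 against 6.53 and 6.25 and differed by 0.69 (SE 0.11), and here NZB_W array 3 did not stand apart. Fcgr4, an activating receptor for immunoglobulin G, differed by 1.58 (SE 0.35) and Fpr2, a formyl peptide receptor, by 1.03 (SE 0.34). The median of the list was 0.39 without NZB_W array 3 and 0.23 with NZW array 2 also left out. Itgam and Fcgr1 are also on the macrophage marker list.

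Of 18 kinases and Rac regulators, 15 were measured and 13 were higher, 3 without overlap, where 48.6% of all genes were higher and 6.64% without overlap, with a median difference of 0.19 that was 0.069 without NZB_W array 3. Prkcb, a protein kinase C that phosphorylates p47phox, differed by 0.61 (SE 0.33), Plcg2, a phospholipase downstream of Fc receptors, by 0.34 (SE 0.17), and Prkcd, another p47phox kinase, by 0.30 (SE 0.18). Without NZB_W array 3 these 3 differences were 0.31, 0.24 and 0.15, and with NZW array 2 also left out that of Prkcd was 0.028. Of 7 transcription factors, 5 were measured and 4 were higher with a median of 0.22, which was 0 without NZB_W array 3. Spi1, which encodes PU.1, held the same value of 5.20 on 4 arrays and read 5.92 on NZB_W array 3. Cebpa differed by 0.52 (SE 0.29), Cebpb by 0.22 (SE 0.14) and Irf8, an interferon-regulatory factor of myeloid cells, by 0.16 (SE 0.33). Without NZB_W array 3 the Irf8 difference turned to -0.13 and that of Cebpa was 0.35, which became 0 with NZW array 2 also left out.

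Enzymes that remove superoxide and peroxide had a median difference of -0.033 over the 13 measured of 16 genes, 5 higher and 8 lower. Gpx1, the cytosolic glutathione peroxidase, read 10.95, 10.45 and 11.38 against 10.28 and 10.13, a difference of 0.72 (SE 0.30) without overlap. Cat, catalase, was lower without overlap, as were 7.48% of all genes, at 10.86, 10.84 and 10.55 against 11.05 and 10.94, a difference of -0.24 (SE 0.12), or -0.14 without NZB_W array 3. Hmox1, the inducible heme oxygenase, read 6.05, 5.91 and 8.36 against 5.84 and 4.96, a difference of 1.37 (SE 0.90) in which NZB_W array 3 stood far above the rest; it was 0.58 without that array and 0.14 with NZW array 2 also left out. Nqo1, a quinone reductase, differed by -0.14 (SE 0.094), and by -0.017 without NZW array 2.

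**Figure D5:**
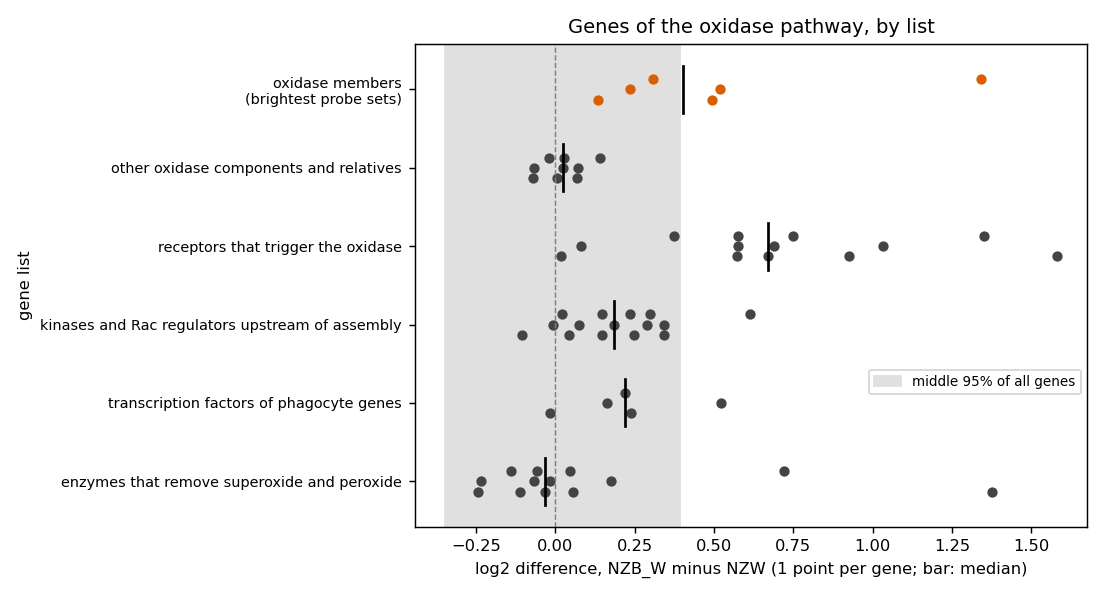
Log2 difference between NZB_W and NZW (x axis) for the brightest probe set of each oxidase gene (orange) and of each measured gene of the 5 pathway lists (grey), with the list median as a bar and the middle 95% of all genes, -0.35 to 0.39, shaded. The receptor list has its median at 0.67, and the further oxidase components all lie inside the shaded range.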

How the data were processed

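The deposited values are log2 expression levels, 1 per probe set and array, which the authors had normalized between arrays: column quartiles are nearly equal. Of RMA, GCRMA and Partek, all named in the submitters' processing notes, no role is stated, so the background method, which affects dim probe sets most, is not known here. No detection calls were used; brightness against the array median stands in for them. Genes were named from the platform annotation (34945 non-control probe sets with 1 symbol, 932 with several, 9160 with none), with 0 symbols changed through Entrez identifiers.

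The log2 values were tested as deposited with limma 3.58.1 in R 4.3.3 (lmFit, eBayes, two-sided, no covariates, no brightness filter, so that every oxidase probe set is tested), with Benjamini-Hochberg adjustment over 45037 probe sets, or over 18193 genes each represented by its probe set of highest mean. SE values and 95% intervals are limma's, with 1.19 prior and 3 residual degrees of freedom; the median SE was 0.094. The test was checked on simulated data that had no tied values, no outlying array and a different spread of variances. That check therefore does not cover these features of the arrays. Members and lists were chosen with earlier results of these data known, and gene lists come from textbook knowledge. Named genes are all oxidase probe sets, up to 4 genes of smallest p per pathway list, and the 5 genes nearest each member spanning over 1 log2 unit; Rac1, Adgre1 and S100a8 were named after their values were seen, and 1 gene that the rule gives is not reported here. Of the listed genes and markers, 20 entries had no probe set with 1 symbol and were not analysed here. Alternatives covered normalization, a brightness filter, variance models, array weights, a replicate block, probe set choice and left-out arrays. Figures were drawn with matplotlib 3.10.9.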

Additional observations from a re-analysis of the deposited data

How the results depend on the processing

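No oxidase probe set and no pathway gene passed the adjusted threshold under any alternative run. Over all probe sets the 2 calls became 5 with quantile normalization, 6 with median centring, 5 with the brightness filter (8 of the 12 oxidase probe sets kept), 5 with robust eBayes and 4 with array weights. They became 0 with each single array left out, 0 with NZB_W array 3 and NZW array 2 both left out, and 0 with replicate number as a block. The labels give no pairing of mice by number, and same-numbered arrays deviated together with correlations of -0.013 and 0.028. Under the replicate block the Cybb differences were 0.86, 1.17 and 0.88 for 1436778_at, 1422978_at and 1436779_at, with a limma adjusted p of 0.748. Only NZB_W has a replicate 3, so the block takes up that array. These differences are therefore the same as those without NZB_W array 3 and are not a separate check.

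Of 164 comparisons of an oxidase probe set with an alternative, 161 kept direction and side of the threshold. Much of this count was fixed in advance and does not measure robustness. The variance models, the brightness filter and the gene-level fit leave the difference itself unchanged, so its sign could not turn. The replicate block repeats the differences found without NZB_W array 3. With 0 oxidase probe sets called in the main fit, no call could be lost. The 3 that turned sign were Rac2 1417620_at with array weights (-0.016) and with NZB_W array 3 and NZW array 2 both left out (-0.093), and Nox4 1451827_a_at with both left out (-0.0067); the cause was not tested. Cybb 1436778_at ran from 0.73 to 1.65 over its alternatives, 1422978_at from 0.64 to 1.76 and 1436779_at from 0.88 to 1.57. With the probe sets of each gene averaged, Cybb differed by 1.30 (interval 0.32 to 2.29) and Nox4 by 0.22 (interval -0.20 to 0.63). A lone NZW array is assumed to vary like the other group. Probe sets below the array medians limit what can be said of Nox4.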
